A study of Drosophila melanogaster with 3 samples.

Results

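The insulin and TOR growth pathway of Drosophila melanogaster was represented by 10 named genes, among 13968 protein-coding genes annotated on the chromosome arms: InR, chico, Akt, foxo, Tor, raptor, S6k, Tsc1, gig and Rheb. They were chosen by name, for their place in the pathway, with earlier results of these data known. For each gene, every chromatin immunoprecipitation peak was collected whose summit, the position of highest signal in the peak, lay within 500 bp of one of its annotated start sites. Such a peak is called a promoter peak here. Tor is named mTor in the annotation and gig encodes the fly Tsc2 protein.

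All libraries came from whole embryos, 0 to 24 h old, of 1 transgenic strain, CG34224-GFP, in which the product of the gene CG34224 carries an eGFP tag; an antibody against GFP pulled down the tagged protein with DNA sonicated to 200 to 800 bp. There were 3 libraries, numbered as biological replicates of this 1 group, and no second genotype, age or treatment, so no comparison between conditions could be made. The labels do not name the promoter that drives the tagged protein, and a control experiment they mention was not analysed here. In whole embryos, strong binding in few cells and weak binding in many cannot be told apart.

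Insulin-like peptides bind the receptor InR, a tyrosine kinase, which signals through the adaptor chico and phosphoinositide 3-kinase to the kinase Akt. Akt phosphorylates the forkhead transcription factor foxo, which then leaves the nucleus, and also inhibits the complex of Tsc1 and gig. That complex switches off the small GTPase Rheb, the activator of TOR complex 1 (TORC1), in which the kinase Tor and its scaffold raptor phosphorylate S6k and other substrates to promote growth.

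The deposited lists rank peaks by the irreproducible discovery rate (IDR), a measure of how well peaks recur between the sets of reads compared. Each peak has a score scaled from this rate, at most 1000, and a signal, the strength given by the authors' peak caller on a scale that is not stated. Each library has a ranked list of all its candidate peaks and a shorter thresholded list, in which no score was below 830. The series has 4 thresholded lists made from all 3 libraries, one of them called conservative and the others called a, b and c here. Read counts did not accompany the peaks, so the depth is unknown. The thresholded lists held 2667, 2841 and 4145 peaks on the chromosome arms in replicates 1, 2 and 3, and the conservative list held 4393. Signals were therefore compared only within a list, by rank or by percentile, where a higher percentile is a stronger peak.

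The sequences just before the start sites are shown for 5 of the genes. Coordinates are on dm6 and the bases were read from the RefSeq copy of that genome, Release 6. Each line runs 5′ to 3′ on the strand of the gene and ends 10 bases into the transcript. Capitals mark the DNA replication-related element (DRE), TATCGATA, the binding sequence of the factor Dref, or its 6 central bases ATCGAT, the DRE core. raptor is shown because it alone among the 10 promoters held the full DRE, Tor and Tsc1 because the DRE core lay close to the start site, and Rheb and InR because no core lay in the stretch. The raptor stretch is chrX:6090192-6090291 on the minus strand. The Tor stretch is chr2L:13004390-13004489 on the plus strand. The Tsc1 stretch is chr3R:24130256-24130316 on the plus strand, cut short because the neighbouring gene begins there. The Rheb stretch is chr3R:5568831-5568930 on the plus strand, and the InR stretch is chr3R:21619312-21619411 on the minus strand.
raptor: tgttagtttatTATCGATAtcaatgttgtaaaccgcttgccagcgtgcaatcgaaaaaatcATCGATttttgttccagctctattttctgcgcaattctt
Tor: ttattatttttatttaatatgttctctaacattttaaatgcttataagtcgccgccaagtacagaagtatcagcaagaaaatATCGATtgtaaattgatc
Tsc1: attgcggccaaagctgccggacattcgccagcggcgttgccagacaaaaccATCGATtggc
Rheb: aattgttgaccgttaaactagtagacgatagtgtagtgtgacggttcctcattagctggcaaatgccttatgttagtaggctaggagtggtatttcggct
InR: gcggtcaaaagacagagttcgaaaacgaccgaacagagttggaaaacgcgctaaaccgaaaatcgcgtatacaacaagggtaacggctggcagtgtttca

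The conservative list held a promoter peak for 8 of the 10 genes, all but InR and S6k. The same was true of 29.7% of all protein-coding genes. In the other series lists the number was 8, 8 and 7 in a, b and c, where 32.4%, 28.8% and 26.4% of protein-coding genes had one. These 4 lists share the same 3 libraries and are not independent. Single libraries listed fewer of the genes, with 4, 3 and 7 of 10 in replicates 1, 2 and 3. The shares over all protein-coding genes in these libraries were 21.1%, 22.3% and 28.6%, so 8 in the conservative list stood well above the share over all genes, and 3 in replicate 2 stood close to it. Peaks in all 3 thresholded replicate lists were found at 3 genes, chico, Tor and Rheb, beside 17.3% of protein-coding genes.

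A further gene, foxo, had a peak in 2 replicate lists. The genes raptor, S6k and Tsc1 had one in replicate 3 only, the longest of the lists, and InR, Akt and gig had none in any replicate. In the longer ranked lists, each of the 10 genes had a promoter peak in each replicate. Ranked promoter peaks are common: 61.6%, 59.6% and 69.8% of protein-coding genes had one in replicates 1, 2 and 3. At the 10 genes the libraries therefore did not differ in whether some candidate promoter peak was listed. The scores differed, and for S6k and Tor so did the position of the strongest summit. For InR a high score did not bring a place in the thresholded list, as given below.

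**Figure D1:**
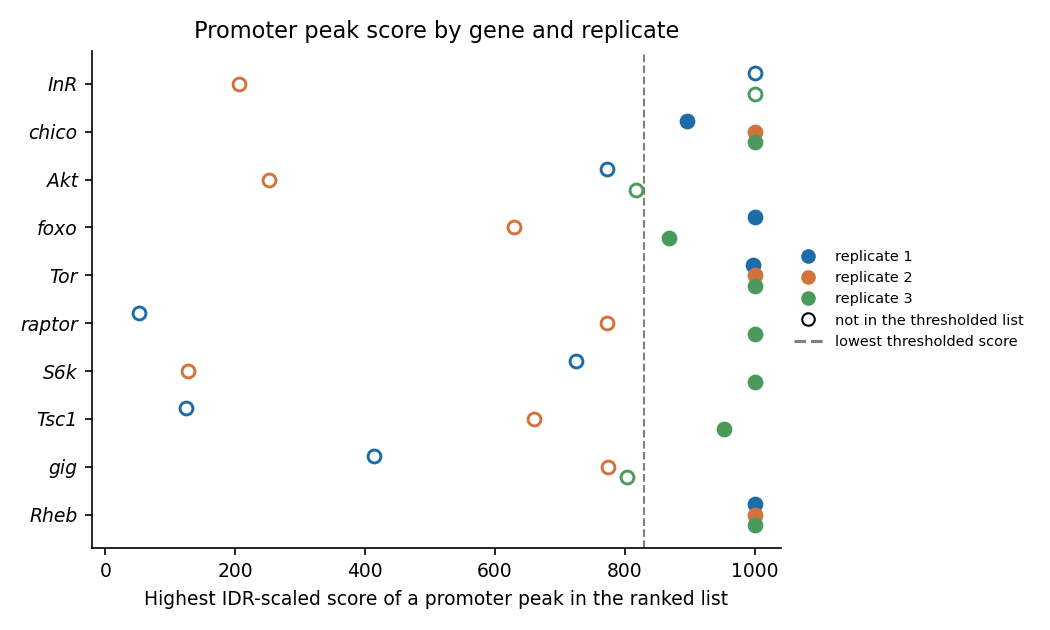
Highest IDR-scaled score of a promoter peak in each replicate's ranked list, for each of the 10 genes; filled points are also in the thresholded list, open points are not, and the dashed line marks the lowest thresholded score, 830. Filled points appear in all 3 replicates for chico, Tor and Rheb, while InR has open points at 1000 in replicates 1 and 3.

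InR (FBgn0283499), the insulin receptor, lies at chr3R:21570248-21619321 on the minus strand and has 4 annotated start sites. Its ranked promoter peaks reached scores of 1000, 206 and 1000 in replicates 1, 2 and 3. Their signals were 68.2, 27.6 and 84.2. Within 500 bp of a start site, InR thus reached the largest possible score in 2 of 3 libraries and a low one in replicate 2. Its promoter peak is nevertheless in no thresholded list. The peaks at chr3R:21619106-21619515 in replicate 1 and chr3R:21619032-21619501 in replicate 3 lie at the outermost start site, with summits 10 and 54 bp into the gene.

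The same held in the series lists. In the ranked lists behind them, the InR promoter peak at chr3R:21619042-21619577 had a signal of 178 and a score of 619 behind the conservative list, 1000 behind a, 1000 behind b and 346 behind c. A second peak, at chr3R:21618219-21618754, had a stronger signal of 240 and a score of 1000 in all 4. Its summit lay 834 bp into the gene and 549 bp from the nearest start site, just outside the 500 bp limit. The replicates held a ranked peak there too, with signals of 67.4, 45.3 and 97.7 in replicates 1, 2 and 3. Its scores were 723, 838 and 933, so replicate 2 scored it above 830. Neither peak is in a thresholded list. Per the deposited descriptions the thresholded lists draw on 1 more input file than the ranked ones, which was not analysed here; its part in this absence was not tested. Ranked peaks with a score of at least 830 that are missing from the thresholded list numbered 104 of 2771 in replicate 1, 91 of 2932 in replicate 2 and 148 of 4293 in replicate 3, or 3.75%, 3.10% and 3.45%. Among promoter peaks of the 10 genes, only the InR peaks of replicates 1 and 3 were of this kind.

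**Figure D2:**
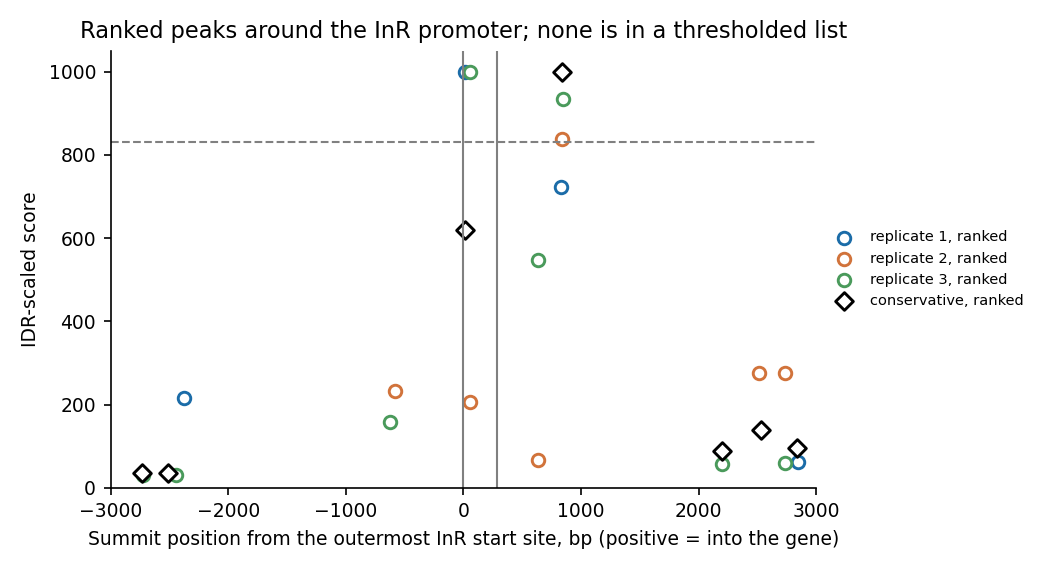
IDR-scaled score of ranked peaks by summit position around the outermost InR start site, in bp, for the 3 replicates (circles) and the ranked list behind the conservative list (diamonds); vertical lines mark annotated start sites and the dashed line the score of 830. Open symbols mean that a peak is in no thresholded list, which holds for every peak drawn, including the conservative diamond at 1000, 834 bp into the gene.

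Taking the score alone, a ranked promoter peak of at least 830 was found at 5, 3 and 8 of the 10 genes in replicates 1, 2 and 3. The shares over all protein-coding genes by this rule were 21.5%, 22.7% and 29.3%. It added InR to replicates 1 and 3 and left the count of genes in all 3 replicates at 3.

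chico (FBgn0024248, chr2L:10242512-10247078, minus strand), the insulin receptor substrate, had thresholded promoter peaks of signal 47.8 in replicate 1, 54.3 in replicate 2 and 133 in replicate 3. Its ranks were 2417 of 2667, 2313 of 2841 and 1741 of 4145. The chico peak was thus near the weak end of the lists in replicates 1 and 2 and above the middle in replicate 3. The mean percentile was 28.7 ± 25.8 (SD, n = 3), a spread almost as large as the mean, and the mean was 14.0 without replicate 3. Summits lay 90, 46 and 90 bp downstream of the start site, in the 5′ UTR, and the strongest conservative summit lay 194 bp downstream, in an intron of chico. The conservative list has a second, weaker chico peak with its summit 9 bp upstream, of signal 94.5 against 231.

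Akt (FBgn0010379, chr3R:16099228-16105670, plus strand), the central kinase of the insulin branch, had its strongest ranked promoter peak at signal 50.1, 42.8 and 83.5 in replicates 1, 2 and 3. Its highest scores were 773, 253 and 817. In replicate 3 that score belonged to a weaker peak, of signal 24.6, and the strongest peak scored 816. All these scores fell short of 830, those in replicate 3 by little. No replicate therefore lists Akt, although all 4 series lists do. The conservative Akt peak, chr3R:16098985-16099520, had a signal of 122, the lowest of the 8 genes, and rank 3848 of 4393. Its summit was 25 bp inside the 5′ UTR.

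foxo (FBgn0038197, chr3R:14056945-14087978, plus strand), the transcription factor that Akt restrains, had a thresholded peak of signal 64.0 in replicate 1 and 70.7 in replicate 3. In replicate 2 the strongest ranked peak had a signal of 44.1 and a score of 629. The foxo score in replicate 3, 868, was the lowest of the 14 listed gene and replicate pairs and stood just above the limit that Akt missed. The summits lay 39 bp upstream in replicate 1 and 24 bp downstream in replicate 3, close to the start site on either side of it. In the conservative list the signal was 137 and the rank 3663 of 4393.

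Tor (FBgn0021796, chr2L:13004480-13013197, plus strand), the catalytic subunit of TORC1 and TORC2, had signals of 79.9, 102 and 109 in the thresholded lists of replicates 1, 2 and 3, with ranks 1582 of 2667, 1114 of 2841 and 2332 of 4145. By its strongest promoter peak, Tor held a middle place in every library. Its mean percentile, 48.4 ± 10.8 (SD, n = 3), was the highest of the 3 genes listed in every replicate and had the smallest spread. That mean joins 2 summit positions, at the start site in replicates 1 and 2 and 300 bp upstream in replicate 3. It does not follow 1 peak. Tor also had the strongest conservative signal of the 10 genes, 318, at rank 1429 of 4393, in its upstream peak. The conservative peak near the Tor start site, of signal 255, was weaker than the 298 of Rheb.

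The Tor summits fell at 2 places. They lay 2 and 4 bp downstream of the start site in replicates 1 and 2, at the DRE core shown above, and 300 bp upstream in replicate 3. The conservative list separated both, with a summit 286 bp upstream in a peak of 213 bp and a weaker one, of signal 255, 23 bp upstream in a peak of 142 bp. The replicate 3 ranked list also held a second Tor peak 26 bp downstream, with a signal of 74.9 and a score of 267. The upstream summit was nearer to another gene: it lay 87 bp before the start site of Vha68-1, which encodes a vacuolar ATPase subunit and is transcribed the other way.

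raptor (FBgn0029840, chrX:6082634-6090201, minus strand), the TORC1 scaffold, had ranked peaks of signal 48.4, 60.8 and 134 in replicates 1, 2 and 3. Their scores were 52, 772 and 1000, from nearly the lowest to the largest possible. The peak of replicate 3 alone entered a thresholded list. The summits were 54, 45 and 40 bp upstream of the start site, so the 3 libraries placed the peak alike while scoring it very differently. The conservative signal was 223, rank 2233 of 4393. The summit also lies in introns of Mipp2 and of asRNA:CR44959, a non-coding gene on the other strand whose start site is 363 bp away.

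S6k (FBgn0283472, chr3L:5797549-5810931, minus strand), the kinase of ribosomal protein S6 and a TORC1 substrate, had ranked peaks of signal 61.1, 23.2 and 107. The scores were 725, 127 and 1000, and only the replicate 3 peak was in a thresholded list. The S6k peak of replicate 2 was also displaced, with a summit 470 bp downstream of the start site against 92 and 63 bp in replicates 1 and 3. S6k was in series lists a and b, with a signal of 157 in both, and not in the conservative list. Behind the conservative list the same peak scored 76.

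Tsc1 (FBgn0026317, chr3R:24130307-24134654, plus strand) and gig (FBgn0005198, chr3L:20129181-20139010, plus strand) encode the partners of the inhibitory complex. The Tsc1 signals were 46.4, 68.3 and 72.4 and the scores 124, 660 and 953 in replicates 1, 2 and 3. The gig signals were 30.3, 36.6 and 72.9 and the scores 414, 774 and 803. Only Tsc1 in replicate 3 was listed, and gig in that replicate missed the limit. Both were in the conservative list at similar strength, 171 at rank 3024 for Tsc1 and 160 at rank 3256 for gig. The other series lists divided them: Tsc1 was in b and c and scored 635 behind a, while gig was in a and scored 534 behind b and 470 behind c. The conservative summit was 6 bp downstream of the Tsc1 start site and 118 bp downstream of that of gig.

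Rheb (FBgn0041191, chr3R:5568921-5570491, plus strand), the GTPase that the Tsc complex inhibits, had thresholded signals of 62.1, 71.8 and 164 in replicates 1, 2 and 3. The ranks were 2125 of 2667, 1757 of 2841 and 1278 of 4145, lowest in replicate 1 and well above the middle in replicate 3. The Rheb mean percentile was 42.6 ± 24.7 (SD, n = 3). The strongest summits agreed to within a few bases, 162, 161 and 158 bp upstream. The conservative one was 163 bp upstream with a signal of 298 and rank 1549 of 4393. Replicate 1 also listed a weaker Rheb peak, of signal 17.7, with its summit 42 bp downstream. Between the genes listed in every replicate, the mean percentiles of chico, Rheb and Tor differed by less than the largest SD.

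**Figure D3:**
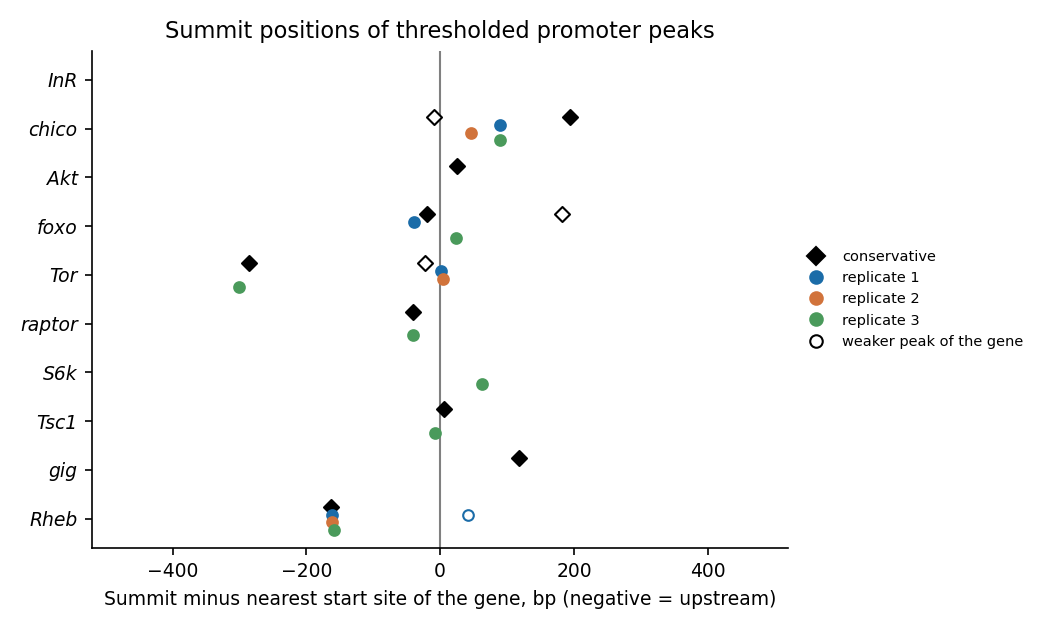
Distance in bp from each thresholded promoter summit to the nearest start site of the gene, with negative values upstream; diamonds are the conservative list, circles the replicates, and open symbols weaker peaks of the same gene. The strongest Rheb summits lie together between 163 and 158 bp upstream, and a weaker one of replicate 1 lies 42 bp downstream. The Tor summits fall into an upstream and a start-site position.

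By conservative signal the order was Tor, Rheb, chico, raptor, Tsc1, gig, foxo and Akt. The strongest and weakest of these differed from 318 to 122, and their percentiles in the list ran from 67.5 to 12.4. The median percentile of the 8 genes was 40.2 and their median signal 197. Over the 4153 protein-coding genes with a conservative promoter peak the medians were 64.5 and 297. Tor and Rheb stood above the median of all these genes and the other 6 below it. In replicates 1, 2 and 3 the median percentile of the listed pathway genes was 21.7, 38.2 and 43.8, against 59.8, 60.0 and 63.1 over listed protein-coding genes. A gene enters such a median only by passing the threshold, and the numbers describe the listed genes.

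In the full ranked lists, where all 10 genes have values, their median lay slightly above that of other genes, not below it. The median percentile of the 10 was 92.9, 90.1 and 94.5 in replicates 1, 2 and 3, against 89.0, 87.4 and 90.4 over protein-coding genes with a ranked promoter peak. Tor had the highest mean, 96.0 ± 0.329 (SD, n = 3), over the 2 summit positions given above, followed by Rheb at 95.3 ± 2.09. The next were raptor at 93.7 ± 2.87, chico at 93.2 ± 3.16, Tsc1 at 92.1 ± 1.54, foxo at 91.5 ± 2.78 and Akt at 91.2 ± 2.60. InR at 88.1 ± 10.4, S6k at 85.5 ± 16.1 and gig at 84.8 ± 7.20 came last and varied most. Neighbours in this order differed by less than the larger SD of the pair at every step. The InR and S6k spreads come from 1 low value each, 76.1 and 66.9, both in replicate 2. That S6k value belongs to the displaced summit given above, so the S6k mean joins different summit positions.

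**Figure D4:**
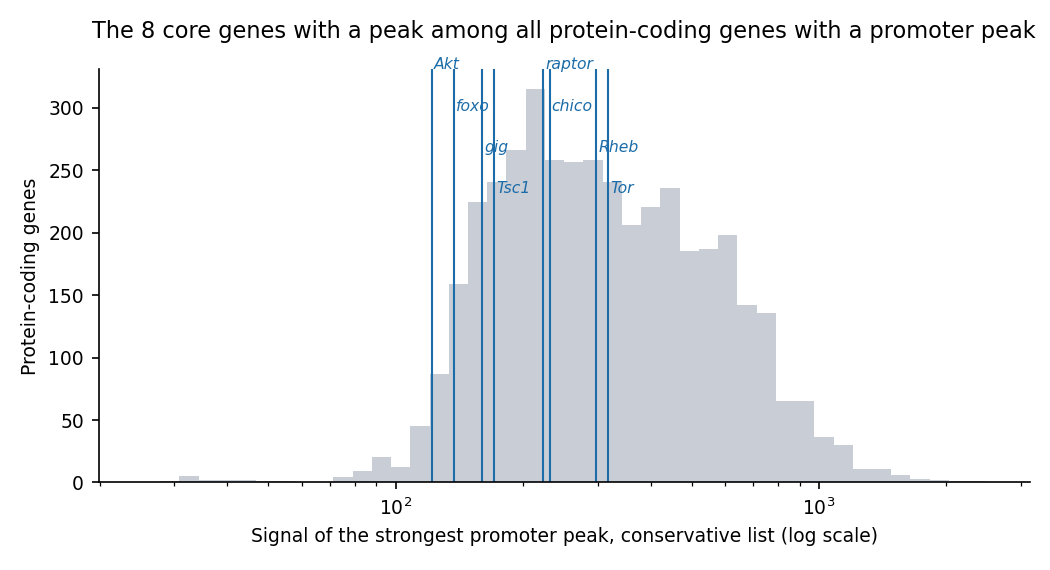
Number of protein-coding genes (y axis) by the signal of their strongest promoter peak in the conservative list (x axis, log scale), with vertical lines at the 8 pathway genes listed there. The lines run from Akt at 122 to Tor at 318, while the median over all 4153 genes is 297.

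For Tor, the genes with the nearest replicate percentiles were CG3638, ubl and koi, out of 2420 protein-coding genes with a thresholded promoter peak in all 3 replicates. The largest difference from Tor in any replicate was 2.81 percentile points for CG3638. It was 3.26 for ubl and for koi, which had identical values in each replicate. A shared promoter peak would give this, so they may not count as separate genes here; whether they share one was not checked. The Tor values compared join both summit positions given above.

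Neighbouring genes limit how the peaks can be assigned. Of the 10 genes, 5 have the start site of a protein-coding gene on the other strand within 500 bp upstream, as do 26.4% of all protein-coding genes and 49.1% of those with a conservative promoter peak. The distances are 42 bp from S6k to kri, 52 bp from Tsc1 to GatB, 306 bp from Rheb to CG2931, 373 bp from Tor to Vha68-1 and 467 bp from Akt to Mhcl. At the strongest peak of each of these genes the summit lay within 500 bp of both start sites. The Rheb summit lay 143 bp before CG2931 and 163 bp before Rheb, and the S6k summit of replicate 3 lay 105 bp before kri. The Tsc1 summit lay 58 bp before GatB, and the Akt summit 492 bp before Mhcl. Which gene such a peak belongs to cannot be told apart. Conservative peaks were present at 4 of the 5 genes with such a neighbour and 4 of the 5 without, whereas over all protein-coding genes the shares were 55.3% with and 20.6% without. The nearest start site of another protein-coding gene was 1004 bp away for raptor, 1800 bp for gig, 2522 bp for chico, 13372 bp for InR and 20547 bp for foxo.

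The DRE was searched as TATCGATA, on both strands, within 50 bp of each summit and in the promoter, taken as 250 bp before to 50 bp after a start site. Only raptor, of the 8 genes with a conservative peak, held it at the strongest summit, beside 18.8% of 3024 conservative promoter summit windows. The raptor element, chrX:6090273-6090280, begins 79 bp upstream of the start site, and its centre is 35.5 bp from the summit. In promoters, raptor was again the only one of 10, beside 10.2% of all protein-coding promoters, 27.8% of those with a conservative peak and 2.71% of those without. A single gene is too few to place the pathway genes against any of these shares.

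The DRE core ATCGAT, which the full DRE contains, was present in 4 of 10 promoters: foxo, Tor, raptor and Tsc1. It is found in 26.3% of all promoters, in 55.0% of those with a conservative peak and in 14.1% of those without. In Tsc1 the core at chr3R:24130307-24130312 begins at the first base of the transcript, 3.50 bp from the conservative summit by its centre. In Tor the core at chr2L:13004472-13004477 begins 8 bp upstream of the start site. It lay within 50 bp of the Tor summits of replicates 1 and 2. Its centre was 280 bp from the stronger conservative summit and 17.5 bp from the weaker one. At the strongest conservative summit of each gene the core was present for 2 of 8, raptor and Tsc1, beside 37.2% of windows. Counting every conservative summit of a gene, the number was 3, with Tor added. Rheb, with the second strongest peak, had none in its promoter, and the nearest copy lay 132 bp from the summit. No DRE core lay within 500 bp of the strongest summits of chico, Akt, S6k and gig.

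The other sequences were as follows in the 10 promoters. The E-box core CAGCTG was present in 3 promoters, Akt, Tsc1 and gig, beside 22.3% of all promoters. The GAGA repeat GAGAGA was present in InR and Akt, beside 17.0%. The FOXO element GTAAACA was present in InR and Akt, beside 11.6%. In flies InR is a known target of foxo. The GAGA and FOXO matches of InR, and the E-box and FOXO matches of Akt, lay at inner start sites. They were not at the start site of the strongest peak. The Motif 1 core GGTCACACT was present in 0 of 10, beside 6.77%. At the conservative summits of the 8 genes none of these 4 was found. The FOXO element of chico lay outside the promoter window and within 50 bp of the chico summits of replicates 1 and 3. All were searched on both strands. A match describes letters only, and its absence says nothing of the factor.

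Of 52 further pathway symbols, 51 matched a gene, and 25 of these, 49.0%, had a conservative promoter peak. The number was 21, 21 and 31 in replicates 1, 2 and 3, and 17 had one in all 3. Over replicates the share was 47.7 ± 11.3% (SD, n = 3), against 24.0 ± 4.07% over all protein-coding genes. Of all protein-coding genes, 29.7% had a conservative promoter peak and 17.3% had one in all 3 replicates. The branch counts below stand beside these shares. Neighbouring genes limit these assignments too. The conservative signals of dock, Sec13, Nprl3 and RpS6 equalled those of CG3862, ATPsynCF6, upSET and bys, as a shared promoter peak gives. Which gene such a peak belongs to cannot be told apart, and such sharing was not counted over the further genes.

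None of 11 genes for ligands and ligand-binding proteins had a conservative peak. In single replicates only Ilp8, a relaxin-like peptide that delays metamorphosis, was listed, in replicate 3 with a signal of 72.6. The genes Ilp1, Ilp2, Ilp4, Ilp5 and Sdr had no promoter peak even in the ranked lists. There, 61.6%, 59.6% and 69.8% of protein-coding genes had one in replicates 1, 2 and 3. No other branch had so low a share of listed genes, though the difference was not tested.

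Among further genes of the phosphoinositide 3-kinase branch, from adaptors of the receptor to targets of Akt, 8 of 10 had a conservative peak, and 5 had one in all 3 replicates. dock, an SH2 and SH3 adaptor, was the strongest of all 51, with a conservative signal of 746 at rank 214 and replicate signals of 276, 190 and 284. Lnk, an adaptor of the receptor, had a conservative signal of 446 and replicate signals of 120, 122 and 243. Both stood above chico in the conservative list and in each replicate. Pi3K92E, the catalytic subunit of phosphoinositide 3-kinase, had 115, 108 and 165 in the replicates and 393 in the conservative list. sgg, the glycogen synthase kinase that Akt inhibits, had 75.5, 62.0 and 126, and 246 in the conservative list.

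Of 3 partners of Tor, Lst8, a subunit of both TOR complexes, had signals of 72.2, 124 and 172 and a conservative signal of 363. rictor, the TORC2 scaffold, was in no thresholded list, with highest ranked scores of 491, 387 and 296. Sin1, also of TORC2, was listed in replicate 2 only, with a signal of 46.3.

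Among TORC1 targets and outputs 6 of 9 had a conservative peak. RpS6, the ribosomal protein that S6k phosphorylates, had 105, 80.6 and 130 in the replicates and 309 in the conservative list. Atg13, an autophagy regulator, had 83.4, 104 and 138 in the replicates and a conservative signal of 298. eIF4E1, the cap-binding factor, had 93.5, 62.6 and 110, and 241 in the conservative list. All of them were listed in every replicate. Thor, the inhibitor of eIF4E, was listed in replicates 2 and 3, with 64.3 and 108, and at 253 in the conservative list.

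In the Rag GTPase and GATOR branch, which reports amino acids to TORC1, 5 of 10 had a conservative peak. Sec13 had 107, 121 and 179 in the replicates and 443 in the conservative list. Nprl3 had 107, 113 and 215, with a conservative signal of 425, and RagC-D had a conservative signal of 414 and ranks of 1133, 865 and 1079 in the replicates. Nprl2, the partner of Nprl3, was in no thresholded list. RagA-B, the partner of RagC-D, was listed in replicates 1 and 3 and not in the conservative list. Wdr59 was listed in replicates 2 and 3 with 113 and 134, and at 321 in the conservative list.

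Among energy and stress inputs 5 of 8 had a conservative peak, and the same 5 had one in all 3 replicates. sima, the fly hypoxia-inducible factor, had a conservative signal of 416 and replicate signals of 105, 75.7 and 210. scyl and chrb, the REDD proteins that inhibit TORC1 under stress, had conservative signals of 395 and 376. Of the AMP-activated kinase, the regulatory subunits SNF4Agamma, at 292, and alc, at 269, were listed in every replicate. The catalytic subunit AMPKalpha was in no thresholded list and had highest ranked scores of 280, 117 and 171.

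**Figure D5:**
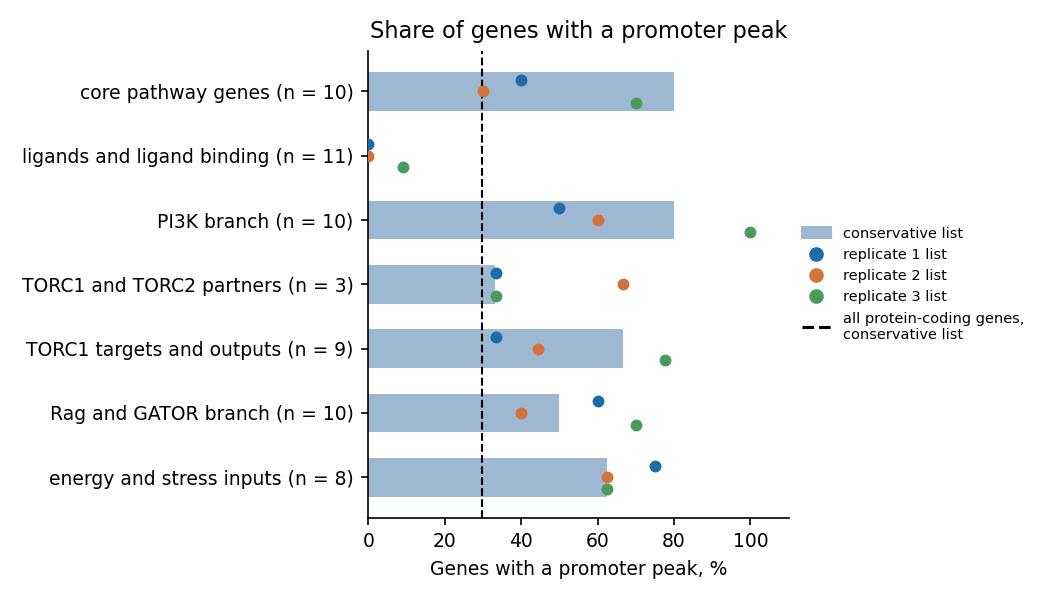
Share of genes with a promoter peak, in percent, for the 10 pathway genes and the further branches, with bars for the conservative list, points for the replicates and a dashed line for all protein-coding genes in the conservative list, 29.7%. The bar for ligands is at 0 while the bar for the core genes is at 80.0%, and replicate 3 gives the highest point of the replicates for 5 of the 7 groups.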

How the data were processed

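The authors deposited ranked and thresholded IDR peak lists per replicate and 4 of each kind for the whole series, per the deposited descriptions on assembly dm6. Each peak carries a deposited score scaled from the IDR, a deposited signal value of the authors' peak caller on an unstated scale, and a summit offset. For the aligner, the peak caller and the IDR, no version is named: not given in the sources used here. Grouping and replicate numbers come from the labels, and what the biological replicates were taken from is not stated beyond the strain.

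Peaks on the 7 chromosome arms were used, and peaks on other sequences were left out. Start sites came from Ensembl release 115, BDGP annotation 6.54, and sequence from the RefSeq genome, Release 6. Counts, ranks, percentiles and exact sequence matches were computed with Python 3.11.15, NumPy 2.4.6 and pandas 2.3.3, and the scripts were tested on simulated data. Each gene was taken with its strongest promoter peak per list. No test was made, because the series has 1 group and peak lists hold no counts. The genes and lists were chosen with earlier results of these data known. Beyond the 10 genes, the text names up to 4 further genes of strongest conservative signal per branch, every further gene listed in all 3 replicates, genes that share a summit, and the 3 genes nearest to Tor; other names (Ilp1, Ilp2, Ilp4, Ilp5, Ilp8, Sdr, rictor, Sin1, Nprl2, RagA-B, AMPKalpha) were chosen after their values were seen. The symbol Lobe matched no gene. One gene that this rule names is counted but not reported here. Alternatives were other distances (250 and 1000 bp), windows (51 and 201 bp), lists, elements, left-out replicates and, added after seeing the data, every conservative summit of a gene.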

Additional observations from a re-analysis of the deposited data

How the results depend on the processing

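The count of 8 pathway genes with a conservative promoter peak fell to 4 in the replicate 1 list and 3 in the replicate 2 list, and to 3 when only the upper 50% of peaks by signal were kept, a setting that reduced all protein-coding genes with a peak from 4153 to 2747. The 1 gene with a DRE at the conservative summit became 0 with a window of 51 bp, 2 with the 6 central bases, and 5 with the 5 bases CGATA, an element chosen after the sequences were seen. It was 0 in the replicate 1 and replicate 2 lists, where fewer genes are listed. Leaving out each replicate in turn gave 3 to 4 genes listed in all remaining replicates, against 3. With a distance of 250 bp, the count in all 3 replicates was 2. Tor dropped out, because its replicate 3 summit lay 300 bp upstream. In all, 40 of 49 alternatives for counts left the count within 1.5 times. The mean percentiles of chico, Tor and Rheb rose to 93.2, 96.0 and 95.3 in the ranked lists, which hold many more weak peaks. The lists carry no depth, so its part in the low scores of replicates 1 and 2 was not tested. No paired analysis was possible because all 3 libraries form 1 group.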

Other observations

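A shorter sequence, CGATA, was looked for after the promoter sequences had been seen. It was present on either strand in 8 of the 10 promoters, all but S6k and gig, beside 53.0% of all protein-coding promoters and 79.9% of those with a conservative peak. At conservative summits it was present for 5 of 8 genes, beside 54.2% of windows. The promoters of chico and Akt, which lack the DRE core, held several copies near the start site. They are shown with CGATA or its complement TATCG in capitals, on dm6, 5′ to 3′ on the strand of each gene and ending 10 bases into the transcript: chico at chr2L:10247069-10247168, minus strand, with 2 copies, and Akt at chr3R:16099138-16099237, plus strand, with 3.
chico: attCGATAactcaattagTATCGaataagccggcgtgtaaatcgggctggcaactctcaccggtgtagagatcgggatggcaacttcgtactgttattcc
Akt: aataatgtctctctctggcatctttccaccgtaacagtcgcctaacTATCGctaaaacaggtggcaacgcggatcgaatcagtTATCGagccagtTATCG

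Away from start sites, thresholded peaks had their summit inside 2 of the 10 genes. InR, which spans 49074 bp, had one in replicate 3 at chr3R:21582691-21583160, with a signal of 70.7, and another in series list a at chr3R:21581713-21582248, with a signal of 145. S6k had one in replicate 3 at chr3L:5797409-5797878, across the 3′ end of the gene. Its signal, 19.0, was close to the lowest of that list, 15.9. Series list b held another in S6k at chr3L:5809580-5810115, with a signal of 181. None of these was in the conservative list.

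Most high-scoring ranked peaks that are missing from a thresholded list, as the InR peaks are, overlapped no thresholded peak of any list: 103 of 104 in replicate 1, 89 of 91 in replicate 2 and 145 of 148 in replicate 3.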
